A study of Mus musculus with 7 samples.

Results

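The cluster of Mir143 and Mir145a is a pair of neighbouring miRNA hairpins that give 4 mature miRNAs in the mouse, mmu-miR-143-3p, mmu-miR-143-5p, mmu-miR-145a-5p and mmu-miR-145a-3p, written below without the species prefix. These 4 of the 1966 mature miRNAs counted in the series were chosen by name. Small RNAs were sequenced from hepatocyte-enriched mouse liver cells, prepared by collagenase perfusion and low-speed centrifugation, to examine the role of ALAS in their regulation. ALAS, or 5-aminolevulinate synthase, starts heme synthesis, and Alas1 and Alas2 encode its forms. ALAS12-KO, whose hepatocytes are described as mutant for ALAS1/2, gave 4 libraries and WT gave 3. All 7 libraries carry the treatment label TMX, which the labels do not spell out, so both genotypes share that treatment. Age, sex, the deleted alleles and what drives the deletion are not given in the labels. Whether each replicate is an animal of its own is not stated either, and the p-values below therefore reflect a spread between libraries that could be technical in part.

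The cluster is best known from vascular and visceral smooth muscle, where serum response factor and myocardin switch on its transcription and where its guide strands favour the contractile over the proliferating state. The guide strand is the arm of a hairpin that is mostly loaded into Argonaute, and the passenger strand is the other arm. miR-143-3p and miR-145a-5p are the guide strands here. Repression of the transcription factors Klf4 and Klf5 by miR-145 is among the known effects. In the liver the cells known for this cluster are the smooth muscle of vessel walls, pericytes and activated stellate cells, not hepatocytes. In bulk libraries of this kind, fewer cells of a type and less of an RNA per cell cannot be told apart.

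Levels of the cluster were read against miRNAs of known cell origin and against those whose pattern over the libraries was most like it. The mature sequences of these 10 companions follow, because every ratio and likeness given for them is a ratio to 1 of these molecules. They come from RefSeq on GRCm38.p6, 10 of 10 being matched, and are written 5′ to 3′ with the seed, bases 2 to 8, in capitals. miR-199a-5p is made in fibroblasts and stellate cells, miR-126a-3p in endothelium and miR-142a-3p in blood cells.
miR-199a-5p: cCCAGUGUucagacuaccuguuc
miR-126a-3p: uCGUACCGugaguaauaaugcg
miR-142a-3p: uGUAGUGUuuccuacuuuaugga
miR-199a-3p: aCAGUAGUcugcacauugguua
miR-199b-3p: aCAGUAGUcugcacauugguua
miR-335-5p: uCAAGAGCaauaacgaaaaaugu
miR-542-3p: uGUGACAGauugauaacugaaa
miR-497a-5p: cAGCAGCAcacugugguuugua
miR-195a-5p: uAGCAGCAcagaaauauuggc
miR-338-3p: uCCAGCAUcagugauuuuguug

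These 10 names hold 8 seeds. miR-497a-5p and miR-195a-5p share a seed and differ after it, and their sites lie together on chromosome 11, at chr11:70234730-70234751 and chr11:70235062-70235082 on the plus strand. miR-199a-3p and miR-199b-3p are identical over their whole length, so reads cannot be assigned to one or the other and their counts are uncertain. miR-199a-5p has a site in Dnm3os, a noncoding RNA on the strand opposite Dnm3, at chr1:162217844-162217866 (plus strand). Its other site, at chr9:21496537-21496559 (minus strand), lies opposite an intron of Dnm2. miR-126a-3p lies at chr2:26591402-26591423 (plus strand) within Egfl7, an endothelial gene. miR-142a-3p lies at chr11:87756903-87756925 (plus strand) in an intron of Mir142hg, and miR-335-5p at chr6:30741314-30741336 (plus strand) in an intron of the imprinted gene Mest.

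Both hairpins lie on the minus strand of chromosome 18 in GRCm38 (mm10), with Mir143 at 61649196 to 61649258 and Mir145a at 61647825 to 61647894. On that strand Mir143 comes first, and 1301 bases separate the hairpins. GENCODE M21 places no other gene over either hairpin. Its model of the long noncoding RNA Carmn, on the same strand, ends 366 bases before Mir143, and Bvht, a noncoding gene of the plus strand, ends 352 bases from Mir145a. RefSeq's longer model of Carmn, at 61645878 to 61665538, contains both hairpins. Mir145b, a related hairpin elsewhere on chromosome 18, gave 0 to 2 reads of miR-145b per library, so that name took almost no reads that might belong to miR-145a.

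ALAS12-KO replicate 1 stood apart in its levels of miRNAs known from cells other than hepatocytes. Its summed level was the lowest of the 7 libraries for 6 of the 7 marker lists used here, those of stroma, endothelium, leukocytes, bile duct epithelium, red cells and striated muscle. For the hepatocyte list it was the highest, at 693313 counts per 1000000 miRNA reads (CPM). miR-122-5p, the defining miRNA of hepatocytes, ran from 534763 to 615065 CPM in ALAS12-KO and from 570543 to 593803 CPM in WT. It thus dominated every library, which does not by itself show how pure the hepatocytes were. miRNA reads per library numbered 10093244 to 17091539 in ALAS12-KO and 7719180 to 21962191 in WT. At these depths the rarest member still had 139 reads in its lowest library. Values below are CPM of all miRNA reads unless TMM, the scaling edgeR used for its tests, is named. A read covers a whole mature miRNA, so no length scaling applies. Levels of different miRNAs also depend on how well each ligates.

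miR-143-3p dominated the cluster. It gave 92.7% to 93.3% of the cluster's reads in ALAS12-KO and 91.1% to 92.2% in WT, and it ranked from place 22 to place 41 among all miRNAs of a library. miR-145a-5p gave 4.64% to 5.46% of the cluster's reads in ALAS12-KO and 5.65% to 6.60% in WT, at places 75 to 108. The passenger strands made up the rest, with miR-143-5p at places 117 to 181 and miR-145a-3p at places 136 to 195. The 4 members together had 1327, 3035, 4865 and 3472 CPM in ALAS12-KO replicates 1 to 4, against 5159, 3521 and 5880 CPM in WT replicates 1 to 3. The groups overlapped, and the lowest library was ALAS12-KO replicate 1.

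The guide strand of Mir143 was lower on average in ALAS12-KO, within the spread of the libraries. miR-143-3p had 1229, 2812, 4539 and 3220 CPM in ALAS12-KO replicates 1 to 4. In WT replicates 1 to 3 it had 4755, 3207 and 5414 CPM. ALAS12-KO replicates 3 and 4 lay above the lowest WT library, and ALAS12-KO replicate 1 lay far below all others. The means were 2950 ± 1364 CPM in ALAS12-KO (SD, n = 4) and 4459 ± 1133 CPM in WT (SD, n = 3). The log2 fold change on TMM-scaled counts was −0.46 ± 0.30 (SE), with an edgeR adjusted p of 0.390. Without ALAS12-KO replicate 1 the fold change was −0.27 ± 0.19, and without ALAS12-KO replicate 3 it was −0.72, each moved by more than 1.5 times.

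The guide strand of Mir145a showed the clearest separation. miR-145a-5p had 72.5, 158.0, 225.5 and 177.3 CPM in ALAS12-KO replicates 1 to 4. In WT replicates 1 to 3 it had 291.4, 232.4 and 336.4 CPM. All 4 ALAS12-KO libraries lay below all 3 WT libraries, by a narrow margin between ALAS12-KO replicate 3 and WT replicate 2. Non-overlap in this direction was found for 69 of 450 tested miRNAs (15.3%) in CPM and for 42 (9.33%) in TMM-scaled CPM, so the separation is not rare in these libraries. The means were 158 ± 63.9 CPM in ALAS12-KO (SD, n = 4) and 287 ± 52.1 CPM in WT (SD, n = 3). The log2 fold change was −0.72 ± 0.27 (SE), with an unadjusted p of 0.0262 and an edgeR adjusted p of 0.221, so it did not pass the threshold of 0.05. Without ALAS12-KO replicate 1 it was −0.54 ± 0.17, with an edgeR adjusted p of 0.119.

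**Figure D1:**
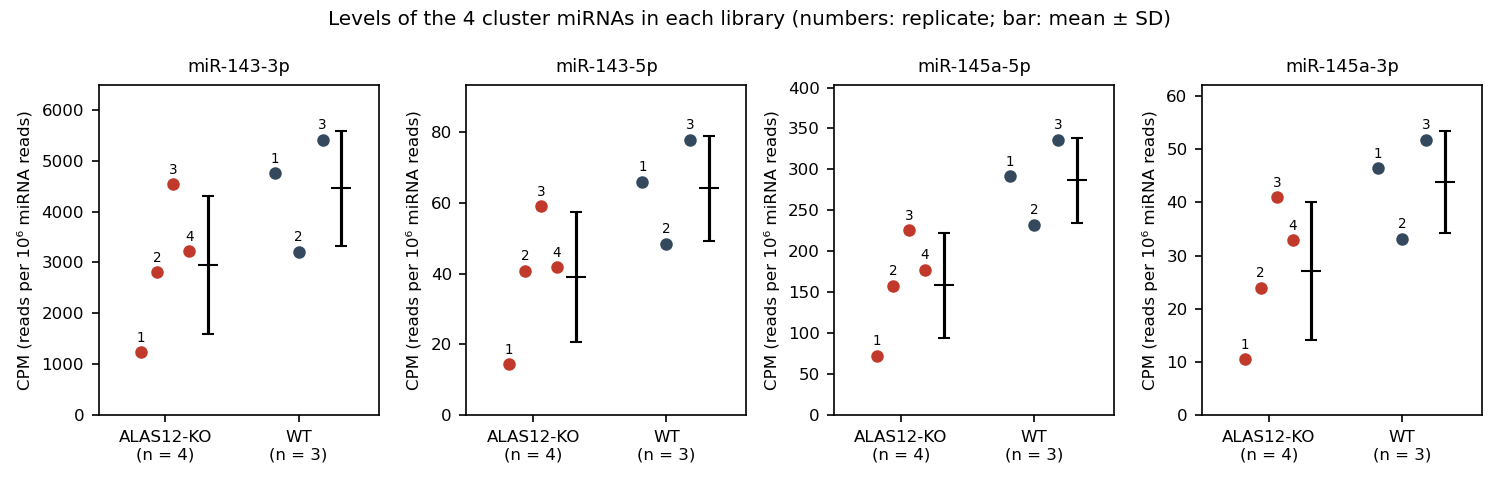
Level of each cluster miRNA (y axis, CPM, from 0) in each library, with ALAS12-KO (n = 4) left of WT (n = 3), replicate numbers above the points and the mean ± SD beside them. Only for miR-145a-5p do all ALAS12-KO libraries lie below all WT libraries, and ALAS12-KO replicate 1 is the lowest point in each panel.

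The passenger strands were rarer and their groups overlapped. miR-143-5p had 14.4, 40.8, 59.0 and 41.8 CPM in ALAS12-KO replicates 1 to 4, against 66.0, 48.4 and 77.9 CPM in WT replicates 1 to 3. miR-145a-3p had 10.6, 24.0, 41.0 and 32.8 CPM in ALAS12-KO replicates 1 to 4, against 46.4, 33.1 and 51.8 CPM in WT replicates 1 to 3. For both, ALAS12-KO replicate 3 lay above WT replicate 2. Their log2 fold changes were −0.58 ± 0.34 for miR-143-5p and −0.56 ± 0.33 for miR-145a-3p (SE), with edgeR adjusted p of 0.350 and 0.348. Without ALAS12-KO replicate 1 they were −0.36 ± 0.21 and −0.35 ± 0.21, each moved by more than 1.5 times.

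All 4 members were tested and had a negative log2 fold change, with a median of −0.57. Over all 450 tested miRNAs the median was 0.06, and 198 (44.0%) were negative. The members of a hairpin and of a cluster come from 1 locus and are not independent. Of the tested miRNAs, 10.0% had a lower fold change than miR-145a-5p, 14.7% than miR-143-5p, 15.6% than miR-145a-3p and 19.8% than miR-143-3p. With edgeR, 0 of the 450 (0.0%) passed, and 84 (18.7%) were at an unadjusted p under 0.05, of which 38 (8.44%) were lower in ALAS12-KO. Of the 4 members, miR-145a-5p was among those 38 and the other 3 were not. DESeq2 called 21 miRNAs (4.67%) and limma-voom 0, with no member called by either. Scaling by library totals shifted the median of all tested miRNAs to −0.12, and 72.7% of those at an unadjusted p under 0.05 were then lower in ALAS12-KO, against 45.2% with TMM. On that scale miR-143-3p had −0.60 ± 0.40 and miR-145a-5p −0.86 ± 0.35 (SE).

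**Figure D2:**
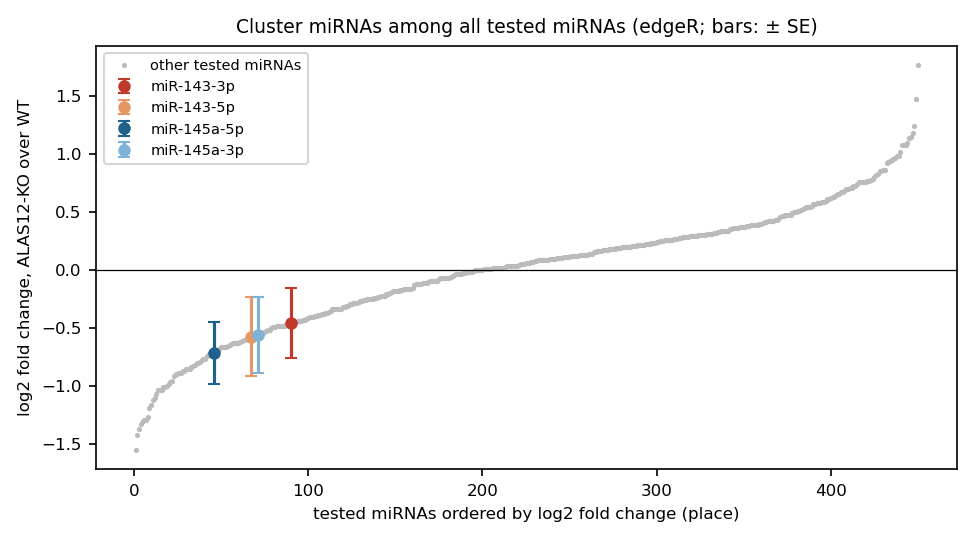
Log2 fold change of ALAS12-KO over WT (y axis) for all 450 tested miRNAs in order of that value (x axis, place), with the 4 members in colour and their SE as bars. The members lie between −0.72 and −0.46, in the lower part of the curve and away from its end.

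The 7 libraries together differed more in the members than in most miRNAs, and much of that spread came from ALAS12-KO replicate 1. The highest library had 4.40 times the lowest for miR-143-3p, 4.64 times for miR-145a-5p, 4.91 times for miR-145a-3p and 5.40 times for miR-143-5p. The median of that fold over the 222 miRNAs at a mean of at least 10 CPM was 1.69. Of these 222, 16.2% varied at least as much as miR-143-3p and 7.66% at least as much as miR-143-5p. Without ALAS12-KO replicate 1 the folds of the members were 1.93 for miR-143-3p, 1.91 for miR-143-5p, 2.13 for miR-145a-5p and 2.16 for miR-145a-3p, against a median of 1.58. Of the 222, 39.2% then varied at least as much as miR-143-3p and 29.3% at least as much as miR-145a-5p. Over the 3 WT libraries alone miR-143-3p varied 1.69-fold. The order of the libraries was nearly the same for the 4 members, with WT replicate 3 highest, WT replicate 1 next and ALAS12-KO replicates 2 and 1 lowest in each. Pearson's r between members over the 7 libraries ran from 0.954 for miR-143-3p with miR-145a-5p to 0.989 for the arms of Mir143, on log2 TMM-scaled CPM. The points share libraries, and without ALAS12-KO replicate 1 the lowest of these values was 0.810.

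Ratios within a library do not depend on its scaling. miR-145a-5p stood at 5.90%, 5.62%, 4.97% and 5.51% of miR-143-3p in ALAS12-KO replicates 1 to 4. In WT replicates 1 to 3 it stood at 6.13%, 7.25% and 6.21%. All ALAS12-KO libraries lay below all WT libraries, with ALAS12-KO replicate 1 nearest to WT. The mean ratio was 5.50% ± 0.390 in ALAS12-KO (SD, n = 4) and 6.53% ± 0.624 in WT (SD, n = 3), a log2 difference of −0.25. The two-sided exact permutation p was 0.0286, the smallest that 35 splits can give, and the Benjamini-Hochberg p over the 9 ratios tested was 0.129. With 9 ratios, at least 6 would have had to reach that smallest p for any to pass. Without ALAS12-KO replicate 1 the difference was −0.28. With 5 reads added to each count it was −0.24, with an exact permutation p of 0.0571 and a Benjamini-Hochberg p of 0.171.

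Such a separation was uncommon among other neighbouring hairpins, though differences of that size were not. The more abundant arms of other hairpins within 10 kb on 1 strand formed 127 pairs, with many arms in several pairs. Most pairs came from 1 locus, the imprinted Dlk1-Dio3 region, so the pairs are not independent. In 6 of the 127 (4.72%) the groups did not overlap, with the rarer strand relatively lower in ALAS12-KO. Several of those 6 shared miR-337-5p. In 4 (3.15%) the rarer strand was relatively higher, also without overlap. In 41 of the 127 pairs (32.3%) the log2 difference was at least as large in either direction. miR-143-3p itself was low in ALAS12-KO, with a log2 fold change of −0.46 against a median of 0.06 over all tested miRNAs. Downward separation from it is therefore rarer by the choice of denominator. Set against miR-143-3p, 4 of 446 miRNAs outside the cluster (0.897%) were separated in the same direction. These 4, named after their values were seen, were miR-199a-5p, miR-429-3p, miR-3065-5p and miR-449a-5p. miR-3065-5p and miR-449a-5p were rare, with means of 0.346 and 0.425 CPM in ALAS12-KO and 1.23 and 1.08 CPM in WT. The passenger strands of the 2 hairpins gave no such separation. miR-145a-3p stood at 58.7% to 78.7% of miR-143-5p in ALAS12-KO and at 66.6% to 70.4% in WT, with overlapping groups. Ratios between the guide strand of 1 hairpin and the passenger strand of the other also overlapped. Their log2 differences were −0.12 for miR-145a-3p over miR-143-3p and −0.10 for miR-145a-5p over miR-143-5p.

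**Figure D3:**
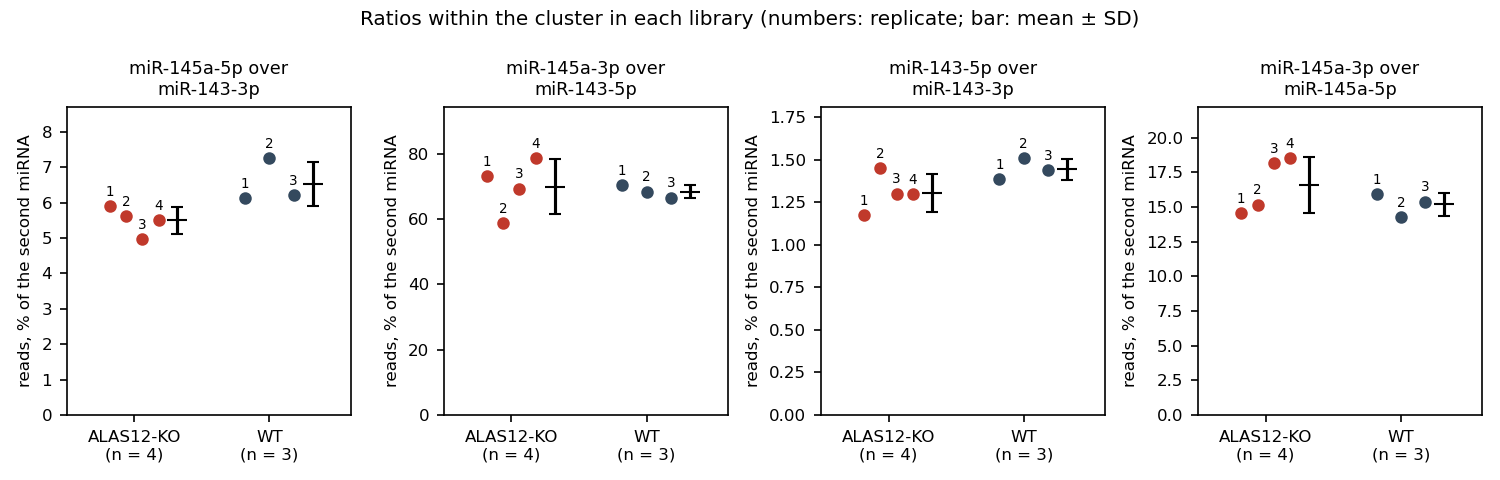
Ratios within the cluster in each library (y axis, reads as % of the second miRNA named, from 0), with ALAS12-KO (n = 4) left of WT (n = 3), replicate numbers above the points and the mean ± SD beside them. The ratio of the guide strands separates the genotypes, at 4.97% to 5.90% in ALAS12-KO and 6.13% to 7.25% in WT, and the ratio of the passenger strands and both arm ratios overlap.

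The balance of the 2 arms of each hairpin was not called different. miR-143-5p stood at 1.17%, 1.45%, 1.30% and 1.30% of miR-143-3p in ALAS12-KO replicates 1 to 4, against 1.39%, 1.51% and 1.44% in WT replicates 1 to 3. miR-145a-3p stood at 14.6%, 15.2%, 18.2% and 18.5% of miR-145a-5p in ALAS12-KO replicates 1 to 4, against 15.9%, 14.3% and 15.4% in WT replicates 1 to 3. Mir143 was thus far more one-sided than Mir145a in every library. The log2 difference between genotypes was −0.15 ± 0.13 (SE) for Mir143 and 0.12 ± 0.15 (SE) for Mir145a, with limma adjusted p of 0.761 and 0.765 over 130 hairpins. The value of Mir145a was 0.08 without WT replicate 2, 0.08 without ALAS12-KO replicate 3 and 0.07 without ALAS12-KO replicate 4. limma called 0 of the 130 (0.0%), with 7 (5.38%) at an unadjusted p under 0.05, neither cluster hairpin among them.

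Sums of stromal, endothelial, leukocyte, bile duct and striated muscle miRNAs were highest in WT replicate 3 and lowest in ALAS12-KO replicate 1, as the cluster was. The red cell sum was also lowest in ALAS12-KO replicate 1, but it was highest in WT replicate 2. Within WT, the stromal, endothelial and striated muscle sums were lowest in replicate 2, as the cluster was. The leukocyte, bile duct and red cell sums were lowest in WT replicate 1, where the cluster's level was not. The stromal list without the members summed to 391 to 1440 CPM in ALAS12-KO and 1066 to 1819 CPM in WT, with 5 of its 6 tested miRNAs at a negative fold change. The 2 endothelial miRNAs summed to 10959 to 36485 CPM in ALAS12-KO and 35562 to 52472 CPM in WT, both with a negative fold change. The 8 leukocyte miRNAs summed to 3002 to 9977 CPM in ALAS12-KO and 8178 to 10988 CPM in WT, all 8 with a negative fold change. None of these miRNAs was called by edgeR, and in each list the lowest sum belonged to ALAS12-KO replicate 1. The 5 bile duct miRNAs (54.4 to 105 CPM in ALAS12-KO, 139 to 243 CPM in WT) and the 4 red cell miRNAs (9.11 to 20.3 CPM in ALAS12-KO, 20.5 to 27.2 CPM in WT) were all negative, with 0 called. The striated muscle list reached at most 6.65 CPM in ALAS12-KO and 9.07 CPM in WT, with miR-208b-3p at 0 in all libraries. Of its 2 tested miRNAs, 1 had a negative and 1 a positive fold change. All 7 hepatocyte miRNAs had a positive fold change, with 0 called. These signs, as for the other lists, are on TMM-scaled counts. In CPM the hepatocyte sums overlapped, at 606752 to 693313 in ALAS12-KO and 633861 to 661952 in WT. The CPM of miR-122-5p overlapped too, so a rise of this list is not shown on that scale. The part these cells play in the cluster's lower levels was not tested.

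**Figure D4:**
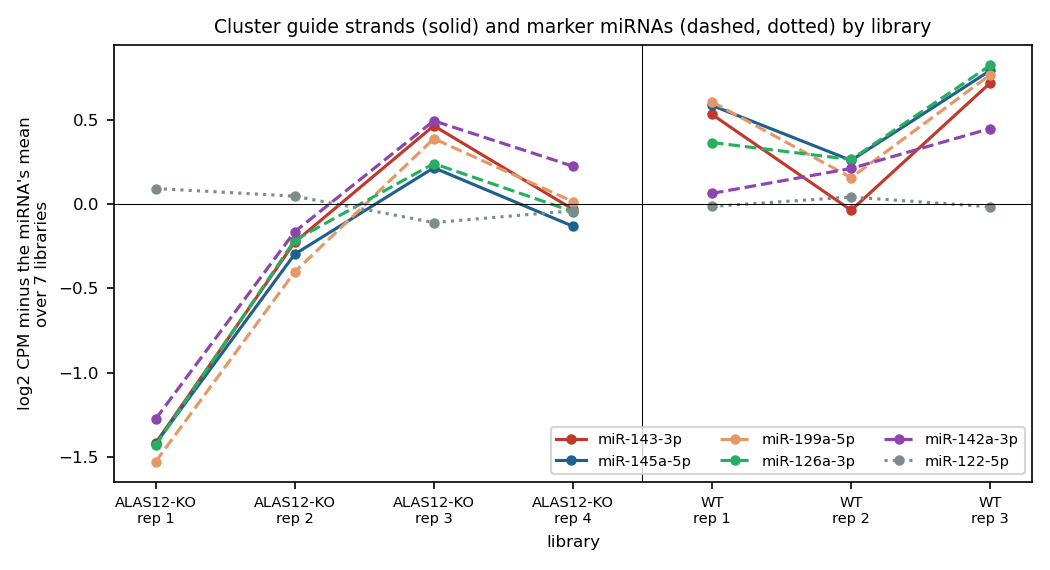
Log2 CPM of the 2 guide strands (solid) and of 4 marker miRNAs (dashed or dotted), each minus its own mean over the 7 libraries (y axis), by library (x axis), ALAS12-KO left of WT. Apart from miR-122-5p, which stays near 0, all lines are lowest in ALAS12-KO replicate 1.

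Set against stromal and endothelial miRNAs, both guide strands were far steadier than their own levels. Against the leukocyte marker miR-142a-3p they were steadier too, though less so. miR-143-3p had 16.1, 16.9, 15.8 and 14.5 reads for each read of miR-199a-5p in ALAS12-KO replicates 1 to 4. In WT replicates 1 to 3 it had 14.2, 13.1 and 14.5. All ALAS12-KO values lay above all WT values, with ALAS12-KO replicate 4 and WT replicate 3 almost equal, so relative to miR-199a-5p this guide strand was slightly higher in ALAS12-KO. Among the 445 miRNAs outside the cluster, 100 (22.5%) were separated from miR-199a-5p in that direction. The log2 difference was 0.18, with a two-sided exact permutation p of 0.0571 and a Benjamini-Hochberg p of 0.171. Over the 7 libraries this ratio varied 1.29-fold between the highest and the lowest, where the level of miR-143-3p varied 4.40-fold.

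miR-145a-5p was also steady against the endothelial miR-126a-3p. It stood at 0.967%, 0.907%, 0.944% and 0.904% of miR-126a-3p in ALAS12-KO replicates 1 to 4, against 1.12%, 0.956% and 0.940% in WT replicates 1 to 3. The groups overlapped, with WT replicate 1 above the rest. The log2 difference was −0.11, with a two-sided exact permutation p of 0.200. The standard deviation over 7 libraries was 0.10 for this log2 ratio and 0.73 for the log2 level of miR-145a-5p. Relative to miR-199a-5p, miR-145a-5p differed by −0.06 on the log2 scale (exact permutation p = 0.486), and relative to miR-126a-3p, miR-143-3p differed by 0.14 (exact permutation p = 0.343). These small differences depended on single libraries. For miR-145a-5p over miR-126a-3p it was −0.03 without WT replicate 1. For miR-143-3p over miR-126a-3p it was 0.08 without ALAS12-KO replicate 3, 0.26 without WT replicate 1 and 0.03 without WT replicate 2. For miR-145a-5p over miR-199a-5p it was −0.11 without ALAS12-KO replicate 1 or 2, −0.01 without replicate 3 and −0.02 without replicate 4 of that genotype, and −0.03 without WT replicate 2. ALAS12-KO replicate 1, at the bottom of every level, lay within the range of the other 6 libraries in all 4 of these ratios but for miR-145a-5p over miR-199a-5p, where it was the highest by a small margin.

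Against the leukocyte marker miR-142a-3p, miR-145a-5p was lower in every ALAS12-KO library than in any WT library. miR-145a-5p stood at 4.91%, 4.95%, 4.47% and 4.24% of miR-142a-3p in ALAS12-KO replicates 1 to 4. In WT replicates 1 to 3 it stood at 7.79%, 5.61% and 6.89%. Of the other miRNAs, 20 of 445 miRNAs outside the cluster (4.49%) were separated from miR-142a-3p in that direction. miR-142a-3p itself had a log2 fold change of −0.17, below the median of all tested miRNAs, which makes such a separation rarer. The log2 difference was −0.53, with a two-sided exact permutation p of 0.0286 and a Benjamini-Hochberg p of 0.129. For miR-143-3p over miR-142a-3p the log2 difference was −0.29 with overlapping groups (exact permutation p = 0.200). It was −0.13 without WT replicate 1 and −0.49 without WT replicate 2. WT replicate 2 had the lowest ratio among WT for both guide strands. Over the 7 libraries the ratio to miR-142a-3p varied 1.65-fold for miR-143-3p and 1.84-fold for miR-145a-5p. Their levels varied 4.40-fold and 4.64-fold.

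Against the hepatocyte miRNA, the guide strands kept the spread of their levels. miR-143-3p stood at 0.200%, 0.472%, 0.849% and 0.574% of miR-122-5p in ALAS12-KO replicates 1 to 4, against 0.832%, 0.540% and 0.949% in WT replicates 1 to 3. The log2 difference was −0.70 for miR-143-3p (exact permutation p = 0.286) and −0.95 for miR-145a-5p (exact permutation p = 0.114), with overlapping groups in both. Without ALAS12-KO replicate 1 these differences were −0.30 and −0.58.

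**Figure D5:**
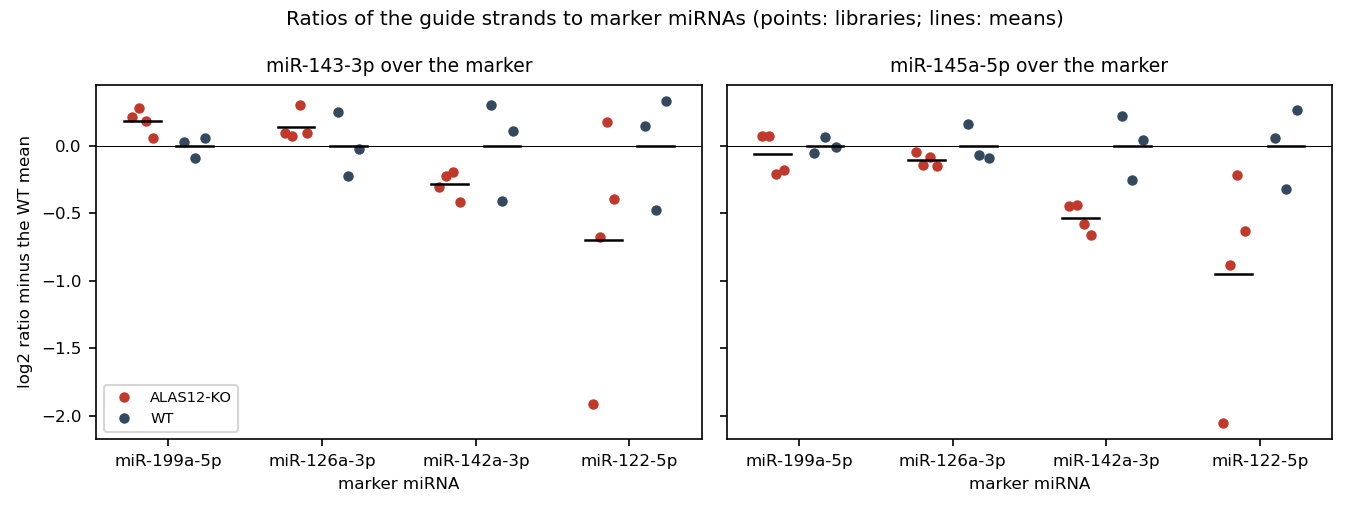
Log2 ratio of miR-143-3p (left) and miR-145a-5p (right) to 4 marker miRNAs (x axis), each minus its WT mean (y axis), with ALAS12-KO left of WT, points for libraries and lines for means. Points lie close together for miR-199a-5p and miR-126a-3p and spread over more than 2 log2 units for miR-122-5p, where ALAS12-KO replicate 1 is lowest.

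The miRNAs most like each guide strand over the 7 libraries included markers of stroma and endothelium, 4 of the 9 being in those lists. The 4 were miR-126a-3p, miR-199a-5p, miR-199a-3p and miR-199b-3p, the last 2 being identical in sequence, so they do not count independently. Among the 446 miRNAs compared, 6 were in the stromal list and 2 in the endothelial list. For miR-143-3p the 5 of 446 with the highest Pearson's r of log2 TMM-scaled CPM were miR-199a-3p, miR-199b-3p, miR-199a-5p, miR-335-5p and miR-542-3p, from 0.989 down to 0.973. For miR-145a-5p they were miR-497a-5p, miR-126a-3p, miR-195a-5p, miR-199a-5p and miR-338-3p, from 0.994 down to 0.981. These values describe 7 libraries that share their depth and makeup, and ALAS12-KO replicate 1 carries much of the spread. Taken as deviations from the mean of each genotype, r was 0.986 for miR-143-3p with miR-199a-5p and 0.987 for miR-145a-5p with miR-497a-5p. Without the 2 libraries farthest from the median of the guide strand, WT replicate 3 and ALAS12-KO replicate 1, the values were 0.846 and 0.974. miR-335-5p held an r of 0.975 with miR-143-3p over those 5 libraries, against 0.769 for miR-542-3p.

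None of these companions passed the edgeR threshold between genotypes. For those of miR-145a-5p, log2 fold changes were −0.63 ± 0.25 for miR-497a-5p, −0.61 ± 0.27 for miR-126a-3p, −0.57 ± 0.25 for miR-195a-5p, −0.63 ± 0.31 for miR-199a-5p and −0.67 ± 0.27 for miR-338-3p (SE). For those of miR-143-3p they ran from −0.63 for miR-199a-5p to −0.43 ± 0.33 for miR-335-5p. The values of both guide strands stood among those of their companions or within 1 SE of them. The companions were picked for likeness over these same libraries, with the genotype difference included. Close fold changes follow from that choice and are no separate result.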

How the data were processed

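The 7 small RNA libraries came from mouse hepatocytes, 4 labelled ALAS12-KO and 3 labelled WT. The deposited values are raw read counts per mature miRNA, 1 table per library, as read from the values. The submitters' processing notes name cutadapt, limma, mm10 and hg38 without saying what each was used for. No aligner, counter, strand setting or handling of multiply matching reads is given in those notes or the other sources. Each table also had 5 summary entries, and these, among them reads outside any miRNA (50.9% to 73.7% of counted reads), entered neither library sizes nor tests. Any 2 libraries of a genotype differed well beyond counting error (chi-square over its degrees of freedom from 97.4 to 1104).

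CPM were computed over all miRNA reads. Genotypes were compared with edgeR 4.0.16 in R 4.3.3 (robust quasi-likelihood test with TMM factors, after filterByExpr at a minimum count of 10), Benjamini-Hochberg adjusted over 450 miRNAs with a threshold of 0.05. Arm ratios were tested with limma 3.58.1 over 130 hairpins after adding 0.5 to each count. The 9 ratios of guide strands were compared by exact permutation in Python 3.11.15. DESeq2 1.42.0 and limma-voom were alternatives. The edgeR, arm-ratio and permutation tests were first tried on simulated data. Named were the 4 members, some miRNAs of the marker lists and the 5 miRNAs most like each guide strand. Members, lists and tests were chosen with earlier results of these data known, and the ratios of passenger strands and of other hairpin pairs were added after values were seen. Those pairs used RefSeq positions and left out hairpins whose commoner arm has several loci or no listed position. Same-numbered libraries did not deviate together (r of −0.03, −0.47 and 0.01), so the numbers were not taken to pair libraries. Spiked-in control RNAs are not analysed here, and a change common to all miRNAs would be invisible.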

Additional observations from a re-analysis of the deposited data

Results flagged for a closer look

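The ratio of miR-143-3p to miR-126a-3p was 19.0% in ALAS12-KO replicate 3, while replicates 1, 2 and 4 of that genotype had 16.1% to 16.4%. The distance from replicate 3 to its neighbour made up 0.895 of the range of the 4 log2 ratios, which is past the limit of Dixon's test for 4 values. It was 1 of 16 measures examined in this way, where chance gives about 0.8 (1 in 20). In WT the same ratio ran from 13.2% to 18.3%.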

How the results depend on the processing

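Over 9 other settings and 7 fits that each left out 1 library, the 4 fold changes stayed negative and none passed. Leaving out 1 library gave −0.72 to −0.27 for miR-143-3p, −0.83 to −0.36 for miR-143-5p, −0.92 to −0.54 for miR-145a-5p and −0.81 to −0.35 for miR-145a-3p. The adjusted p of miR-145a-5p ran from 0.0679 (no filter on low counts) to 0.461 (without WT replicate 2). The number of miRNAs called, 0 with edgeR, was 2 with library totals, 21 with DESeq2 and 13 with no filter, and 0 to 1 when 1 library was left out. The cause was not tested. The cluster's log2 difference of −0.72 ran from −0.98 to −0.35 when 1 library was left out. The sign of each of the 9 ratio differences and of both arm differences was kept in every setting. Without single libraries, miR-145a-5p over miR-143-3p ran from −0.29 to −0.17, where the exact test cannot pass 0.05. With a replicate block the fold changes were −0.57 for miR-143-3p, −0.71 for miR-143-5p, −0.82 for miR-145a-5p and −0.75 for miR-145a-3p, and 0 miRNAs were called. Pairs of replicates 1 to 3 gave −0.25 for miR-145a-5p over miR-143-3p, and the block changed no call. For the rarest member 1 CPM stood for 7.72 to 22.0 reads.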
